A study of Danio rerio with 17 samples.

Results

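A set of 9 genes that act inside the cell in Wnt signalling, or that the pathway switches on, were followed in zebrafish cranial neural crest cells, the cells that build most of the facial skeleton: dvl3b, nkd1, gsk3b, csnk1a1, bcl9, ctnnbip1, tle2a, lef1 and ccnd1. They were picked by name from the genes that the authors list as different between mutant and wild type cells, so their presence in those lists is a condition of the choice and not a result. All 9 have a row: 8 of the 1520 genes listed for prdm3 mutants and 4 of the 2988 gene IDs listed for prdm16 mutants, with 3 (nkd1, csnk1a1 and tle2a) in both. Listing needed p below 0.05, without adjustment, for prdm3 mutants, and q (adjusted p) below 0.05 for prdm16 mutants. These p and q, from the same libraries as the values below, chose the genes, and no test of the 9 is given.

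The mutants were prdm3-/- and prdm16-/- embryos, set against wild type embryos, all at 48 hours post fertilization. Cells carrying the sox10:GFP reporter were sorted from pooled, dissociated embryos. The mutant alleles, the strain and the number of embryos in a pool are not given in the labels. The sox10 promoter is active in the crest, and also in glia and in the otic vesicle. The prdm3 table uses 3 mutant libraries and wild type replicates 2 and 3, and the prdm16 table uses mutant replicates 1 and 2 and wild type replicates 1, 2 and 3. Both comparisons therefore share wild type libraries. Library names begin with a number that the labels do not explain: 1, 3 and 4 for prdm3 mutant replicates 1, 2 and 3, 2 and 3 for prdm16 mutant replicates 1 and 2, and 3, 4 and 4 for wild type replicates 1, 2 and 3. The names of wild type replicates 1 and 2 hold prdm3, and that of replicate 3 holds prdm16. Both wild type libraries of the prdm3 table thus carry the number 4, as prdm3 mutant replicate 3 does, and the other mutant libraries have no wild type library of their number in that table. Whether these numbers stand for crosses or days is not given, so p-values measure the spread between these libraries only.

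In canonical Wnt signalling, Dishevelled proteins carry the signal from the receptor to a destruction complex, in which casein kinase 1α and GSK3β phosphorylate β-catenin and mark it for degradation. When the complex is held back, β-catenin enters the nucleus and joins TCF/LEF proteins, displacing Groucho repressors and recruiting cofactors such as Bcl9. The pathway guides neural crest induction and is active again when crest cells choose between skeletal, pigment and neural fates.

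In prdm3 mutant cells the levels of all 8 genes held for this comparison were above those of wild type replicates 2 and 3. The ratio of means ran from 1.35 in bcl9 to 2.89 in dvl3b. Wild type replicate 1 is not in this comparison, and in csnk1a1 it lay above every prdm3 mutant library. For bcl9, gsk3b, dvl3b, ctnnbip1 and ccnd1 no value of replicate 1 is listed. Of the 11242 genes tested, 12.7% were listed higher and 0.783% lower, and the 8 genes include both drivers and inhibitors of the pathway. None of the 8 had q below 0.05 in the authors' deposited table, where the lowest q among them was 0.276 (ccnd1) and the highest 0.364 (tle2a); at that threshold 0.0267% of tested genes passed. In prdm16 mutant cells, lef1, nkd1, tle2a and csnk1a1 were listed at 0 in both mutant libraries. For that comparison 27.4% of the 10623 genes tested were listed lower, 0.734% higher, and 23.9% were listed at 0 in both mutant libraries. Mutant and wild type libraries of 1 table did not overlap in any of these genes, as in 100% of the listed rows of either table.

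**Figure D1:**
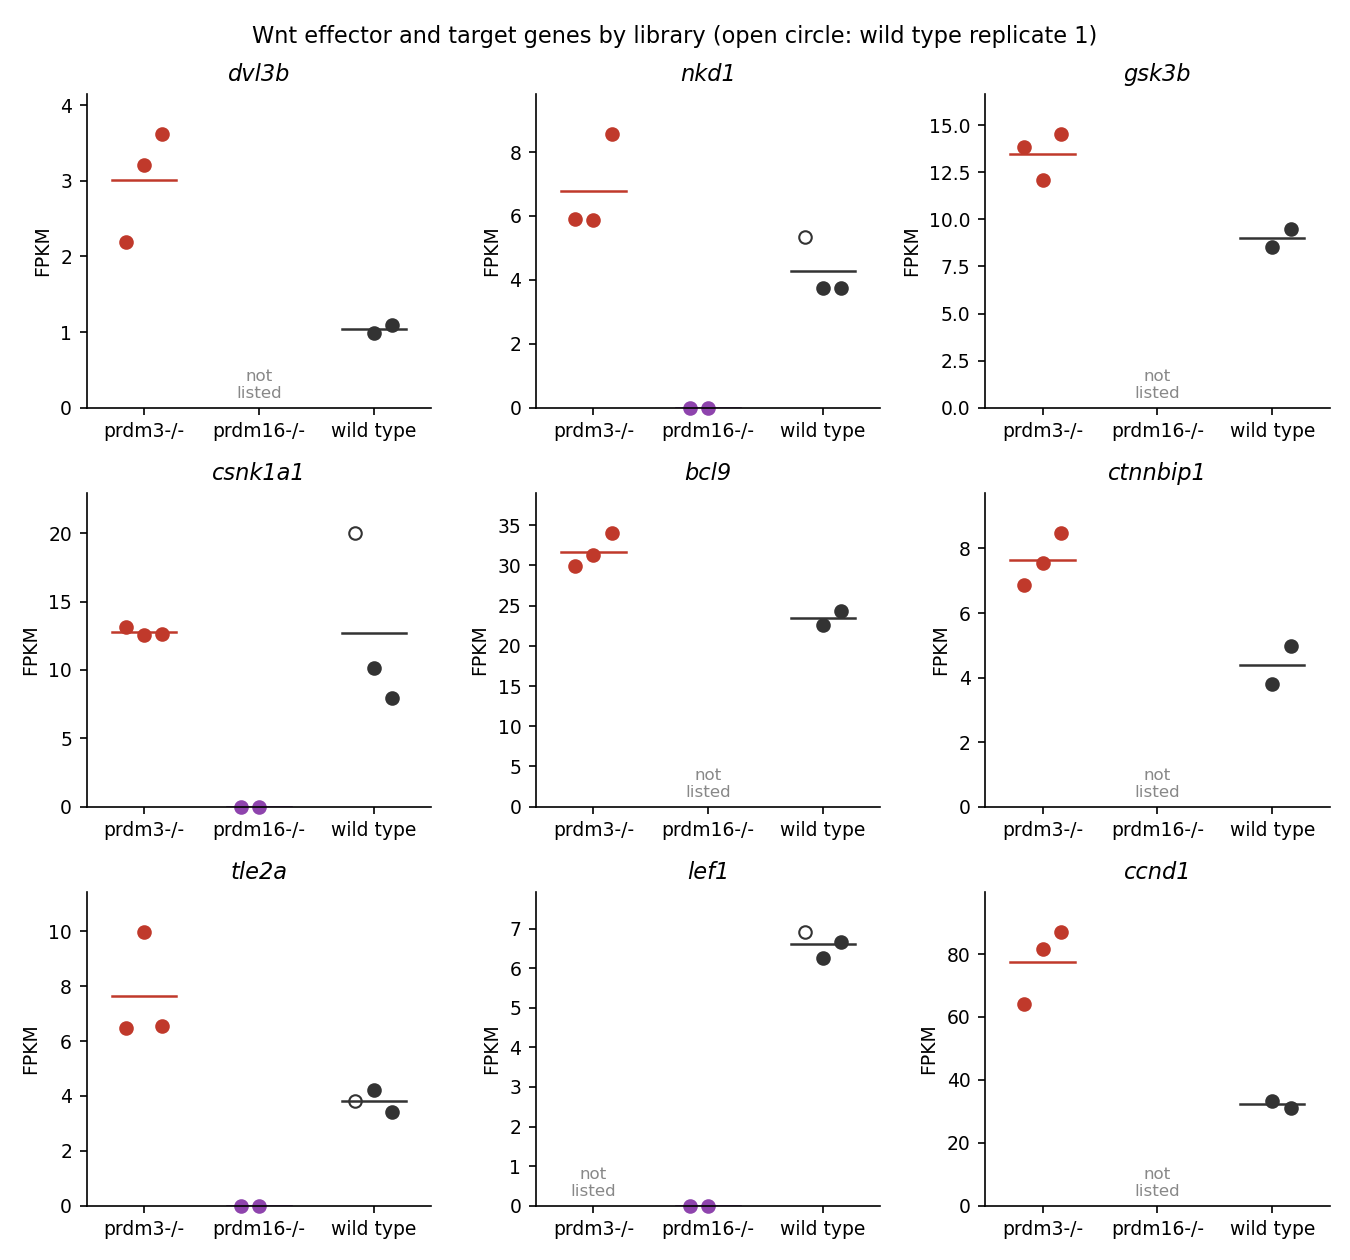
Expression level (FPKM, linear axis from 0) of each of the 9 genes in prdm3-/-, prdm16-/- and wild type libraries; each circle is 1 library, the line is the mean of the circles in a column, and the open circle is wild type replicate 1, which is not in the prdm3 table. The prdm3-/- circles lie above both filled wild type circles in all 8 genes listed there, the prdm16-/- circles lie at 0, and in csnk1a1 the open circle (20.0 FPKM) lies above all prdm3-/- circles.

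Levels are FPKM, fragments scaled to transcript length and to the fragments of the library, a unit relative to the rest of the library, and library values stand in the order of the replicate numbers. In these bulk samples, fewer cells of a type and less RNA per cell cannot be told apart. Read depth is unknown, since neither read totals nor gene lengths come with the tables. The most abundant listed row in the prdm3 table, FO704772.1, had 87464, 67004 and 61209 FPKM in the mutant libraries, against 120204 and 108402 FPKM in the wild type libraries, and its part in the shift of other genes was not tested. Neither mecom, the zebrafish name of prdm3, nor prdm16 is among the listed genes, so the genotypes were not checked at the targeted genes. The gene sox10, whose reporter was used for the sort, and the crest marker crestin are not among the listed genes either. Of 8 crest markers, prrx1a was listed higher in prdm3 mutants, at 30.3 to 37.0 FPKM against 22.0 to 25.3 FPKM in wild type, and foxd3 was at 0 in both prdm16 mutant libraries and at 3.10 to 3.40 FPKM in wild type. Each is 12.5% of the 8 markers, beside 12.7% of all tested genes listed higher in prdm3 mutants and 27.4% lower in prdm16 mutants. Of 40 markers of other cell types, 5 were listed higher and 4 lower in prdm3 mutants, against 12.7% and 0.783% of all tested genes. The lower ones were the lens genes crygm2d9 and cryba1b, which together had 0 to 0.705 FPKM in prdm3 mutant and 3.24 to 4.17 FPKM in wild type libraries, the muscle gene tnnt3a (0 to 0.591 against 1.27 to 1.47 FPKM) and the neuronal gene sncb (0 to 0.644 against 1.78 to 2.36 FPKM). Higher were the neuronal gene inab, the epidermal gene krt91 and the otic gene oc90, the last at 0.877 to 1.42 FPKM in prdm3 mutant and 0.268 to 0.425 FPKM in wild type libraries. The largest sum was that of the pigment genes tyrp1b and dct, 2 of 7 pigment markers, which together ranged over 24.7 to 32.9 FPKM in prdm3 mutant and 6.53 to 14.8 FPKM in wild type libraries. In prdm16 mutants 2 of the 40 were listed, beside 27.4% of all tested genes listed lower: fabp7a and hbbe1.1, both at 0 in the mutant libraries. The part of these cells in the Wnt gene values was not tested.

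In wild type replicates 2 and 3, which hold all 9 genes, ccnd1 had the highest mean level (32.2 FPKM) and bcl9 the next (23.5 FPKM). The mean was 9.04 FPKM for csnk1a1 and 9.02 FPKM for gsk3b, and the libraries of these kinase genes overlapped. Next came lef1 at 6.45 FPKM, apart from its neighbours. The levels of ctnnbip1 (4.39 FPKM), tle2a (3.81 FPKM) and nkd1 (3.75 FPKM) overlapped each with the next, and dvl3b was lowest at 1.04 FPKM.

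Among the genes that act next to the receptor, dvl3b (ENSDARG00000103462) encodes a Dishevelled protein, which relays the signal from Frizzled. It had 2.19, 3.22 and 3.61 FPKM in prdm3 mutant libraries, against 0.983 and 1.095 FPKM in wild type libraries. Every mutant library was at least 1.09 FPKM above the higher wild type library. The means were 3.01 ± 0.734 FPKM (SD, n = 3) in mutants and 1.04 ± 0.0791 FPKM (SD, n = 2) in wild type, a difference of 0.96 ± 0.21 (SE) on the log2(FPKM + 1) scale. In the authors' deposited table p was 0.0195. At this level the pseudocount matters, and with 0.1 in place of 1 the log2 difference was 1.42. The table of gene IDs used here gives this ID only the symbol DVL3, so the assignment to the b copy rests on the authors' table, and reads that fit both Dishevelled 3 copies may have been divided between them.

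The feedback inhibitor nkd1 (ENSDARG00000020053), whose product binds Dishevelled and is itself switched on by Wnt signalling, had 5.90, 5.88 and 8.55 FPKM in prdm3 mutants and 3.74 and 3.75 FPKM in wild type replicates 2 and 3. Wild type replicate 1, from the other table, had 5.34 FPKM, closer to the mutants but still below all of them. Against replicates 2 and 3 the ratio of means was 1.81 with a log2 difference of 0.70 ± 0.20 (SE), and against all 3 wild type libraries the log2 difference was 0.56. In the authors' deposited table p was 0.0416 for prdm3 mutants. In prdm16 mutants nkd1 was listed at 0 in both libraries, against 4.28 ± 0.918 FPKM (SD, n = 3) in wild type, where q was 0.0117 by the authors' deposited table.

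Of the kinases of the destruction complex, gsk3b and csnk1a1 were listed higher in prdm3 mutants. The gene gsk3b (ENSDARG00000017803), for the kinase whose phosphorylation marks β-catenin for degradation, had 13.9, 12.1 and 14.5 FPKM in prdm3 mutant libraries, against 8.56 and 9.48 FPKM in wild type libraries. The groups were separated by 2.60 FPKM. The ratio of means was 1.495 and the log2 difference 0.53 ± 0.11 (SE), with p = 0.0160 in the authors' deposited table.

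The gene csnk1a1 (ENSDARG00000052674) encodes casein kinase 1α, which phosphorylates β-catenin first and so primes it for GSK3β. It had 13.2, 12.5 and 12.7 FPKM in prdm3 mutants and 10.1 and 7.96 FPKM in wild type replicates 2 and 3, a ratio of 1.42 and a log2 difference of 0.47 ± 0.12 (SE), with p = 0.0294 in the authors' deposited table. Wild type replicate 1 had 20.0 FPKM, above every prdm3 mutant library, including replicate 2, whose name begins with the same number. With all 3 wild type libraries the means were 12.8 FPKM in prdm3 mutants and 12.7 ± 6.41 FPKM (SD, n = 3) in wild type, a ratio of 1.01, so that the groups overlapped and the listed difference rested on which wild type libraries entered. Without wild type replicate 3 the log2 difference was 0.31 and limma on the listed rows no longer called it. The labels of replicate 1 hold the word cleaned, as do those of prdm3 mutant replicate 2 and both prdm16 mutant libraries used, and no source used here explains it. Among all 309 genes in both tables that were listed higher in prdm3 mutants, every prdm3 mutant library was also above wild type replicate 1 in 224 (72.5%). Wild type replicate 1 was above all prdm3 mutant libraries in 36, and above both other wild type libraries in 211. Genes listed only for prdm3 mutants have no listed value of replicate 1. In prdm16 mutants csnk1a1 was listed at 0 in both libraries, and q was 0.0248 by the authors' deposited table.

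Of the genes that work with β-catenin in the nucleus, bcl9 (ENSDARG00000036687), whose product links β-catenin to Pygopus, had 30.0, 31.3 and 34.0 FPKM in prdm3 mutants and 22.6 and 24.3 FPKM in wild type. The lowest mutant library lay 5.64 FPKM above the highest wild type library. This was the smallest ratio of the 8, at 1.35, with a log2 difference of 0.42 ± 0.08 (SE) and p = 0.0121 in the authors' deposited table. The gene ctnnbip1 (ENSDARG00000038954) encodes a small protein, also called ICAT, that binds β-catenin and keeps it from TCF/LEF. It had 6.86, 7.56 and 8.46 FPKM in prdm3 mutants, against 3.80 and 4.99 FPKM in wild type. All mutant libraries were above both wild type libraries, which differed from each other by more than neighbouring mutant libraries did. The ratio was 1.74 and the log2 difference 0.68 ± 0.16 (SE), with p = 0.0220 in the authors' deposited table.

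The Groucho family repressor gene tle2a (ENSDARG00000042484), whose product holds TCF/LEF targets silent without β-catenin, had 6.47, 9.96 and 6.54 FPKM in prdm3 mutants and 4.22 and 3.40 FPKM in wild type replicates 2 and 3. Prdm3 mutant replicate 2 stood above the others. Wild type replicate 1 had 3.82 FPKM, between the other wild type libraries, so that the ratio was 2.01 with either set of wild type libraries. The log2 difference from replicates 2 and 3 was 0.83 ± 0.25 (SE), and p was 0.0461 in the authors' deposited table, the closest of the 8 to the limit of listing. Without wild type replicate 3 the log2 difference was 0.71 and limma on the listed rows no longer called it. Genes just outside that limit are not analysed here. In prdm16 mutants tle2a was listed at 0 in both libraries, against 3.81 ± 0.407 FPKM (SD, n = 3) in wild type, where q was 0.00592 by the authors' deposited table.

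The transcription factor gene lef1 (ENSDARG00000031894), the DNA-binding partner of β-catenin and also a target of the pathway, is held only in the prdm16 table. It was listed at 0 in both prdm16 mutant libraries, against 6.91, 6.25 and 6.66 FPKM in wild type replicates 1, 2 and 3. These wild type libraries were close to each other, and q was 0.00209 in the authors' deposited table, the lowest of the 4 genes. In all 4 genes both mutant values are 0, so the mutant libraries add no spread to the p behind q. The order of these q therefore follows the level and spread of the wild type libraries. The level of lef1 in prdm3 mutants is not analysed here.

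The Wnt target ccnd1 (ENSDARG00000101637), which encodes cyclin D1, the partner of the kinases that start the cell cycle, had 64.2, 81.5 and 86.9 FPKM in prdm3 mutants and 33.4 and 31.1 FPKM in wild type. The gap between the groups, 30.8 FPKM, was almost as wide as the wild type level itself. The means were 77.5 ± 11.9 FPKM (SD, n = 3) in mutants and 32.2 ± 1.62 FPKM (SD, n = 2) in wild type, a ratio of 2.41. The log2 difference was 1.23 ± 0.17 (SE), with p = 0.00575 in the authors' deposited table. Its place among the 8 genes depends on the scale: with a pseudocount of 1 it was above that of dvl3b (0.96), and with 0.1 it was 1.25, below that of dvl3b (1.42), as was its ratio of means.

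The 8 genes had a median ratio of 1.77 between prdm3 mutant and wild type means, and the median over all 1430 genes listed higher with levels above 0 in both groups was 1.75 (quartiles 1.52 and 2.12). Within the 1432 genes listed higher, 97.1% had a smaller log2 difference than ccnd1, 87.4% than dvl3b and 77.0% than tle2a. The share was 59.2% for nkd1, 57.3% for ctnnbip1, 29.3% for gsk3b, 19.3% for csnk1a1 and 13.6% for bcl9. When each library was divided by its median over the listed genes above 0 in every library, which takes out the shift that the listed genes share, the log2 difference fell to 0.47 in ccnd1 and to 0.48 in dvl3b, against 1.23 and 0.96 without this scaling. On that scale tle2a was at 0.18, nkd1 at 0.05 and ctnnbip1 at 0.02, and gsk3b, csnk1a1 and bcl9 turned to -0.18, -0.24 and -0.33. That scale is built from genes chosen for a difference, most of them higher, and so removes a common rise by its construction. A highest level in prdm3 mutant replicate 3 was seen in 6 of the 8 genes, and in 35.1% of the genes listed higher.

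**Figure D2:**
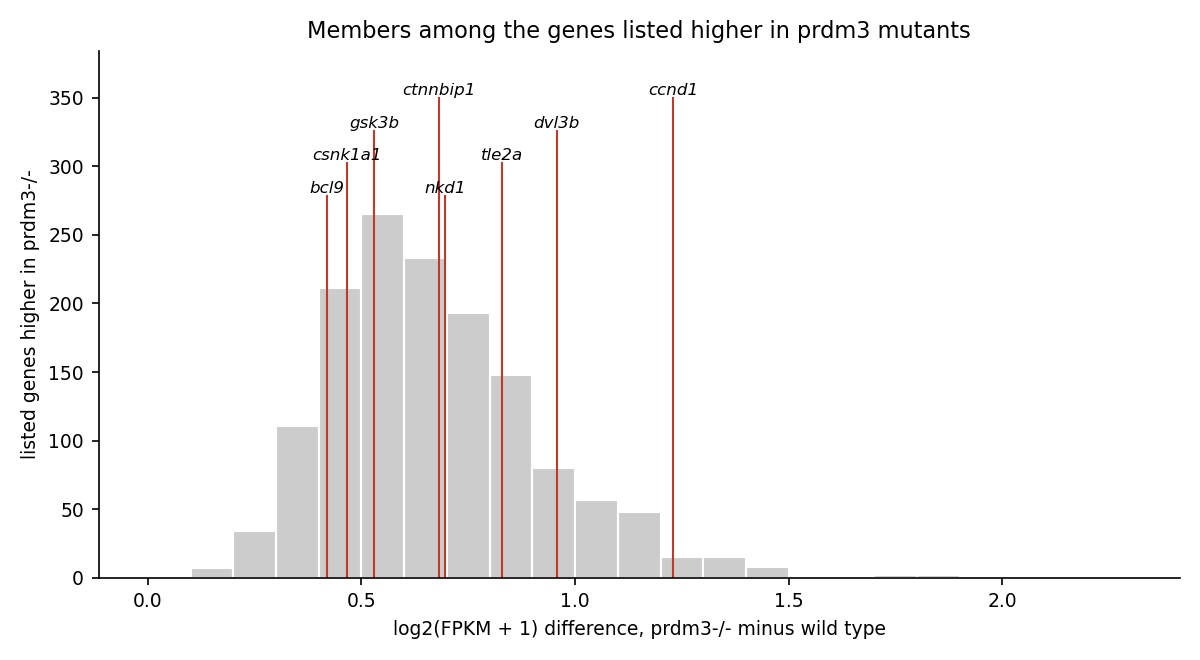
Number of genes (vertical axis) by log2(FPKM + 1) difference, prdm3-/- minus wild type (horizontal axis, bins of 0.1), for the 1432 genes listed higher in prdm3-/- cells; red lines mark the 8 Wnt genes at their own difference. The line of bcl9 stands at 0.42, on the lower side of the distribution, and that of ccnd1 at 1.23, in its upper tail.

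Ratios between these genes within a library do not depend on how libraries are scaled, and bcl9 was taken as the denominator because it had the smallest ratio between the groups, so that the means of the others over it are higher in mutants by this choice. For ccnd1 over bcl9 the ratio was 2.14, 2.61 and 2.56 in prdm3 mutant libraries, against 1.48 and 1.28 in wild type libraries. For dvl3b over bcl9 it was 0.0731, 0.103 and 0.106 in prdm3 mutants and 0.0435 and 0.0450 in wild type. The groups did not overlap in either ratio, nor in those of tle2a, nkd1 and ctnnbip1 over bcl9, all higher in the mutants; the same held for 60.3% of the other 1431 genes listed higher, so 5 of 7 is no result about these genes. The ratios of gsk3b and csnk1a1 to bcl9 overlapped between the groups: for gsk3b they were 0.425 ± 0.0382 (SD, n = 3) in mutants and 0.384 ± 0.00775 (SD, n = 2) in wild type. These ratios come from the libraries that chose the genes and describe unequal differences among them.

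**Figure D3:**
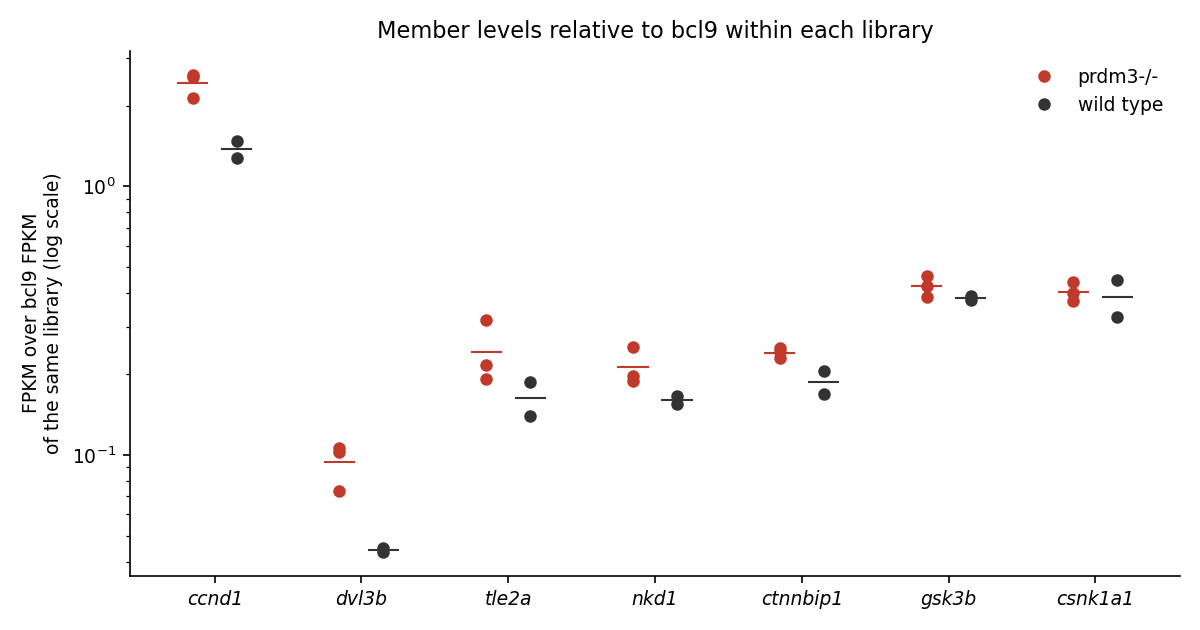
FPKM of 7 Wnt genes divided by the FPKM of bcl9 in the same library (log axis), in prdm3-/- libraries (red, left) and wild type libraries (black, right); circles are libraries and lines are means. The groups are apart for ccnd1, dvl3b, tle2a, nkd1 and ctnnbip1 and overlap for gsk3b and csnk1a1.

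For the 3 genes in both tables, the levels stood side by side as follows. The mean of csnk1a1 was 12.8 FPKM in prdm3 mutants, and both prdm16 mutant libraries were at 0. The mean of tle2a was 7.66 FPKM in prdm3 mutants, and that of nkd1 was 6.78 FPKM, with prdm16 mutant libraries at 0 for both genes. Since both comparisons use the same wild type libraries, opposite directions are not independent of each other, and 86.4% of the 339 genes in both tables had this pattern of prdm3 mutant libraries above and prdm16 mutant libraries below wild type.

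A value of 0 in the prdm16 mutant libraries needs care. Of the 2990 rows in that table, 2540 (84.9%) were at 0 in both mutant libraries. Genes that every cell uses were among them, such as the proteasome subunit psma4, at 34.7, 20.2 and 27.2 FPKM in wild type replicates 1, 2 and 3, and the respiratory chain subunit ndufs5, at 27.4, 25.7 and 23.4 FPKM, both chosen after their values were seen. Whether a listed 0 is a failed estimate or a lack of the transcript was not tested, and no fold is given for lef1, nkd1, tle2a or csnk1a1. Of the listed rows at 0 in both mutant libraries, 139 had a higher wild type mean than csnk1a1, 425 than lef1, 827 than nkd1 and 946 than tle2a. In the range of wild type means that holds these 4 genes, 3.5 to 13 FPKM, the table lists 1158 rows, of which 941 were at 0 in both mutant libraries and 53 were above 0 in both.

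Lists of pathway genes were counted around these 9. The prdm3 table held 22 of 118 intracellular Wnt genes and Wnt targets, 22 higher and 0 lower, and the prdm16 table held 29, 0 higher and 29 lower, of which 23 were at 0 in both mutant libraries. That is 18.6% of the list higher in prdm3 mutants, beside 12.7% of all tested genes, and 24.6% lower in prdm16 mutants, beside 27.4%. Genes of a list that were not tested count as not listed, so these counts are not shares of tested genes. The 9 genes above, chosen because they were listed, are in the list of 118. They make up 8 of the 22 higher genes and 4 of the 29 lower genes. Both shares are thus raised by the choice, and the 18.6% beside 12.7% is no result about the list. Neither the β-catenin genes ctnnb1 and ctnnb2 nor the widely used Wnt target axin2 was among the listed genes of either table.

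In the destruction complex list, 6 of 29 (20.7%) were higher in the prdm3 table, beside 12.7% of all tested genes, and 6 (20.7%) lower in the prdm16 table, beside 27.4%. Beside gsk3b and csnk1a1, the scaffold genes apc2 and amer2 and the casein kinase genes csnk1g2a and csnk1da were listed higher in prdm3 mutants. The level of csnk1g2a was 7.45 ± 1.04 FPKM (SD, n = 3) in prdm3 mutants and 3.55 ± 0.437 FPKM (SD, n = 2) in wild type replicates 2 and 3. Against these wild type libraries its ratio, 2.098, was above those of gsk3b and csnk1a1. Wild type replicate 1, not in that comparison, had 6.37 FPKM for csnk1g2a, just below the lowest prdm3 mutant library (6.69 FPKM). The level of csnk1da, named after its values were seen, was 20.7 ± 3.23 FPKM in prdm3 mutants and 14.0 ± 0.256 FPKM in wild type. The level of apc2 was 9.22 ± 0.798 FPKM (SD, n = 3) in prdm3 mutants and 4.38 ± 0.868 FPKM (SD, n = 2) in wild type, and that of amer2 was 5.72 ± 0.825 FPKM in prdm3 mutants and 3.21 ± 0.0923 FPKM in wild type. In prdm16 mutants the scaffold gene axin1 was listed at 1.16 and 0 FPKM, against 29.8, 22.4 and 19.7 FPKM in wild type libraries. The ubiquitin ligase genes cul1a and fbxw11a were at 0 in both prdm16 mutant libraries, against 1.40, 1.37 and 1.49 FPKM (cul1a) and 3.18, 2.62 and 2.38 FPKM (fbxw11a) in wild type.

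In the list of Dishevelled genes and their regulators, 2 of 23 (8.70%) were listed higher in prdm3 mutants, dvl3b and nkd1, and 7 (30.4%) lower in prdm16 mutants. The shares among all tested genes were 12.7% and 27.4%. Both dvl3b and nkd1 were chosen because they were listed. Apart from them, 0 genes of this list were listed higher in prdm3 mutants and 6 lower in prdm16 mutants. These shares are no result about the list. The other Dishevelled 3 copy, dvl3a, was listed at 0.0561 and 0 FPKM in prdm16 mutants, against 5.47, 5.17 and 4.201 FPKM in wild type. A second Naked gene, nkd2a, was at 0 in both prdm16 mutant libraries and at 10.1, 9.997 and 6.51 FPKM in wild type. The Dishevelled-binding gene dact2 was listed at 0 and 0.297 FPKM in prdm16 mutants, against 5.79, 6.53 and 4.82 FPKM in wild type.

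Of 34 nuclear effectors, 9 (26.5%) were listed higher in prdm3 mutants, beside 12.7% of all tested genes, and 10 (29.4%) lower in prdm16 mutants, beside 27.4%. The 9 of these 10 at 0 in both mutant libraries compare with 84.9% of all listed rows. The chromatin remodeller gene smarca4a had the smallest ratio of these 9, at 44.5 ± 0.890 FPKM (SD, n = 3) in prdm3 mutants and 37.7 ± 0.00417 FPKM (SD, n = 2) in wild type. The histone deacetylase gene hdac1, whose product works with Groucho proteins, was at 33.9 ± 2.48 FPKM in prdm3 mutants and 22.6 ± 3.11 FPKM in wild type. In prdm16 mutants the Bcl9 partner gene pygo2 and the kinase gene nlk2 were at 0 in both libraries, against 13.6, 8.41 and 10.6 FPKM (pygo2) and 3.52, 2.87 and 2.57 FPKM (nlk2) in wild type.

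Of 36 Wnt targets, 6 (16.7%) were listed higher in prdm3 mutants and 9 (25%) lower in prdm16 mutants, all 9 at 0 in both mutant libraries; the shares among all tested genes were 12.7% and 27.4%. The growth regulator gene mycn was at 29.3 ± 2.27 FPKM (SD, n = 3) in prdm3 mutants and 17.5 ± 0.601 FPKM (SD, n = 2) in wild type. The arch homeobox gene msx1b was at 11.8 ± 1.11 FPKM in prdm3 mutants and 7.52 ± 0.547 FPKM in wild type replicates 2 and 3. Wild type replicate 1, not in that comparison, was above prdm3 mutant replicates 2 and 3 (11.0 and 11.3 FPKM), at 11.8 FPKM. With it the groups overlapped. In prdm16 mutants msx1b and the receptor gene tnfrsf19 were at 0 in both libraries, against 11.8, 7.13 and 7.91 FPKM (msx1b) and 2.60, 2.11 and 2.80 FPKM (tnfrsf19) in wild type.

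**Figure D4:**
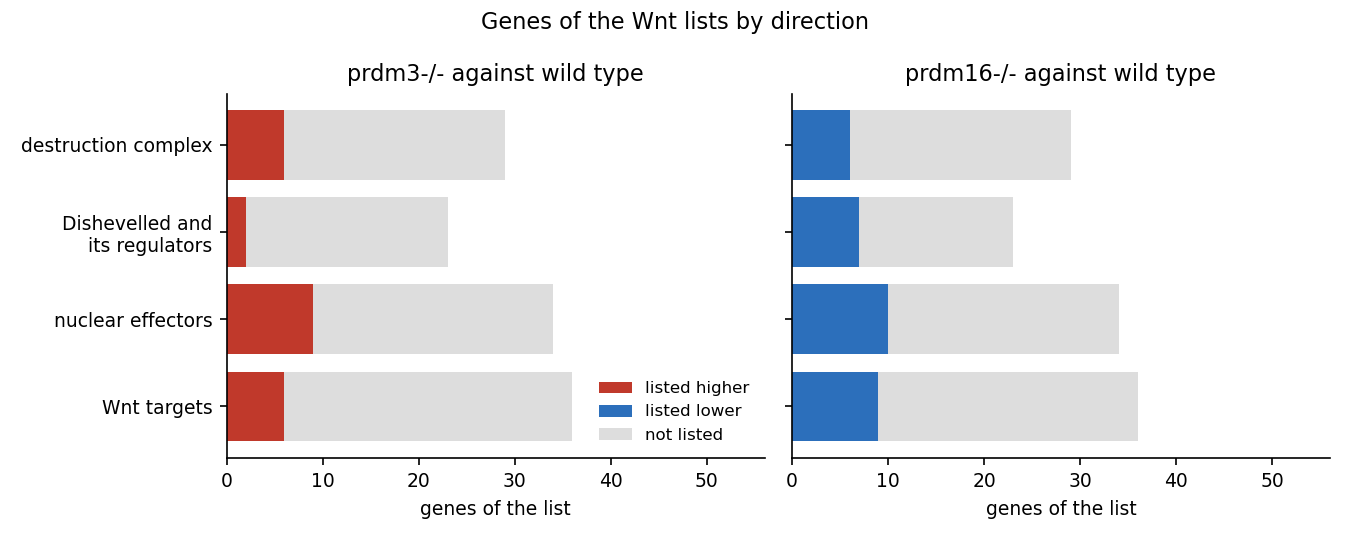
Number of genes (horizontal axis) in 4 Wnt lists by whether the authors list them higher (red), lower (blue) or not at all (grey), in prdm3-/- cells (left panel) and prdm16-/- cells (right panel), each against wild type cells. The prdm3-/- panel holds 6, 2, 9 and 6 higher genes from top to bottom, and the prdm16-/- panel 6, 7, 10 and 9 lower genes; genes in several lists count in each.

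The listed genes whose levels were most like those of ccnd1 over the 5 libraries of the prdm3 table, by Euclidean distance of log2(FPKM + 1), were the ribosomal protein gene rpl12 (distance 0.53), the homeobox gene pbx4 (0.59) and anp32b (0.62). Their means were 64.7, 61.8 and 61.0 FPKM in prdm3 mutants, against 35.6, 34.5 and 31.3 FPKM in wild type. The genes most like lef1 over the 5 libraries of the prdm16 table were bloc1s6 (distance 0.10), zgc:92818 (0.11) and ncoa4 (0.11), each at 0 in both mutant libraries.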

How the data were processed

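RNA was measured in sorted sox10:GFP positive cells, in 9 of the 17 samples. Per the submitters' processing notes the tools included Cufflinks and TopHat2 2.1.1, and the build was danRer11; no role is given for each. The authors deposited 1 table per mutant; the library values are taken as FPKM made by the authors, from the presence of Cufflinks in those notes and the fractional values. The authors' p-value and q-value per gene are deposited beside them; the deposited p was matched within 1% by a two-sided test with equal variances on log2(FPKM + 1), in 1520 of 1520 rows (prdm3) and 2990 of 2990 rows (prdm16). From the steps between p and q, 11242 genes had been tested for prdm3 and 10623 for prdm16. In every listed row of either table the higher of the mutant and wild type means was 1.0 FPKM or more. Wild type values in both tables were equal within 0.01 FPKM in 338 of 339 shared genes. Columns were matched to samples by the sample descriptions, and prdm16 mutant replicate 3 is not analysed here.

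Computed here were means, SDs, ratios of means, differences and SEs on the log2(FPKM + 1) scale, which understates changes of low genes, and counts per gene list. A count by the authors' p or q stands in for a model, because genes past the authors' limit of listing are not analysed here. As an alternative limma 3.58.1 in R 4.3.3 was run on the listed rows, with its spread estimated from rows already selected, after a check on simulated data. Python 3.11.15 was used for the rest. The 9 genes, the lists and the rule for named genes were chosen with earlier results of these data known. Named genes are the 9, up to 4 per Wnt list and direction with the smallest p, and the 3 nearest to ccnd1 and to lef1. Some genes that meet this rule are not reported here. Members of the lists for other cell types and cyclin D partners were named after their values were seen. The 8 ATAC-seq libraries, which mark open chromatin, are not used here, because gene positions on the build of the peaks were not part of the sources, and the planned test of peaks at the promoters of these genes was not made. No sequences are shown for the same reason.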

Additional observations from a re-analysis of the deposited data

Results flagged for a closer look

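In 3 genes every prdm3 mutant library lay above, and every prdm16 mutant library below, every wild type library of the same table. This pattern was seen in 293 (86.4%) of the 339 genes in both tables, since no listed row of either table has overlapping groups, and so is no result about these 3. The prdm3 mutant mean minus the prdm16 mutant mean was 12.8 FPKM in csnk1a1, 7.66 FPKM in tle2a and 6.78 FPKM in nkd1. The difference between the mutants was not tested, all prdm16 mutant values are listed zeros, and in csnk1a1 wild type replicate 1 lies above the prdm3 mutants.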

How the results depend on the processing

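The count of 8 genes listed higher in prdm3 mutants was 8 by limma on the listed rows at an unadjusted p below 0.05 and 8 with the replicate number as a block. These rows were selected by p from the same libraries, and limma called 1471 of 1520, so this count was nearly fixed by the listing and shows no stability. It was 8 among rows with means of 1 FPKM or more. Leaving out 1 library at a time it ranged from 6 to 8; without wild type replicate 3, csnk1a1 and tle2a were not called. At the authors' q below 0.05, a threshold chosen after seeing the data, the count was 0; by limma's adjusted p it was 6, but 0 with the block, 0 without wild type replicate 2, 0 without wild type replicate 3, 3 without prdm3 mutant replicate 3, 5 without mutant replicate 1 and 6 without mutant replicate 2. The count of 4 genes in prdm16 mutants was 4 by limma, with the block and without each wild type library in turn (4 to 4). Limma called 2988 of the 2990 listed prdm16 rows, so this count was also nearly fixed by the listing and shows no stability. It was 0 among rows with means of 1 FPKM or more in both groups, since all 4 are listed at 0 in mutants. Deviations of libraries with the same replicate number had correlations of -0.053 and -0.041 over listed prdm3 rows, and 0.009 and -0.113 over 128 prdm16 rows. With 2 wild type libraries the prdm3 correlations of 1 mutant library are equal and opposite by construction. The same holds for the prdm16 correlations of 1 wild type library, with 2 mutant libraries. These values therefore cannot decide whether the replicate numbers pair samples. The numbers that begin the library names differ from the replicate numbers, and each table shares only 1 of them between mutant and wild type. A block by these numbers was not fitted. The log2 difference turned round only when libraries were scaled to the median of listed genes, in bcl9 (-0.33), gsk3b (-0.18) and csnk1a1 (-0.24). Other pseudocounts, the block and leaving out libraries kept every direction. The groups overlap in no listed row of either table, so neither another pseudocount nor a left-out library could turn a direction round. With the block, the log2 differences in prdm3 mutants equalled those without mutant replicate 1 in all 8 genes. In prdm16 mutants they equalled those without wild type replicate 3 in all 4 genes. The block was therefore no separate check of direction. ATAC peaks were not used, so no other peak threshold, window, overlap or peak number was tried.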

Other observations

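Genes that act with cyclin D1 at the start of the cell cycle, chosen for the text after their values were seen, were also listed. Of 24, 4 (16.7%) were listed higher in prdm3 mutants, ccnd1 among them, beside 12.7% of all tested genes, and 4 (16.7%) lower in prdm16 mutants, beside 27.4%. The higher share counts ccnd1, which was chosen because it was listed, and 3 other genes. The retinoblastoma family gene rbl1 was at 7.73 ± 1.44 FPKM (SD, n = 3) in prdm3 mutants and 3.62 ± 0.394 FPKM (SD, n = 2) in wild type, and its relative rb1 at 5.74 ± 0.412 FPKM in prdm3 mutants and 4.25 ± 0.0513 FPKM in wild type. The transcription factor gene e2f3, whose product is bound by that of rb1, was at 8.42 ± 1.92 FPKM in prdm3 mutants and 3.75 ± 0.222 FPKM in wild type. Wild type replicate 1, not in the prdm3 comparison, had 7.18 FPKM for rb1, above every prdm3 mutant library. For rbl1 it had 7.62 FPKM, within the prdm3 mutant range of 6.09 to 8.73 FPKM. Both rb1 and rbl1 were also listed lower in prdm16 mutants, at 0.311 and 0 FPKM (rb1) and 0.284 and 0 FPKM (rbl1). In prdm16 mutants the kinase gene cdk2 and the cyclin-dependent kinase inhibitor gene cdkn1ba were at 0 in both libraries, against 10.6, 5.18 and 9.85 FPKM (cdk2) and 12.2, 12.7 and 8.14 FPKM (cdkn1ba) in wild type replicates 1, 2 and 3.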
